A study of Rattus norvegicus with 10 samples.

Results

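The aryl hydrocarbon receptor gene Ahr, its partner Arnt and 6 genes of enzymes tied to the receptor were followed in mammary tumours that 7,12-dimethylbenz(a)anthracene (DMBA) had induced in female Sprague-Dawley rats. The 8 genes were chosen by name, and each was read by the probe set annotated to that gene alone with the highest mean log2 signal over the 10 arrays. They are 8 of the 14217 genes with such a probe set. Of these 8 genes, 6 lay above the limit used for testing, a mean log2 signal of 5.15, and Cyp1a1 and Aldh3a1 lay below it.

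Every tumour came from animals given a single oral dose of 100 mg/kg DMBA, and the labels name no other treatment. A Trucut needle of 0.7 cm by 2.5 mm took a biopsy from 5 grade II tumours (31D3, 32D1, 37I1, 50I1 and 52I4) at 12 weeks of age, at a tumour volume of 2 cm3. The whole tumour was taken at sacrifice, at 19 weeks of age, 7 weeks later, which makes 5 biopsies and 5 total tumours. The series description speaks of needle material for the late samples too, and the sample labels were followed. The labels give the age at sampling but not at dosing, so the weeks since the dose are unknown here, and no undosed tissue is among the arrays. Whether some tumours share a rat is not stated either, and p-values speak only of these 5 tumours. The way of sampling, the age and the run of array numbers all go with the group and cannot be told apart from it.

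The receptor is a transcription factor that waits in the cytoplasm with HSP90 and co-chaperones until a planar aromatic ligand binds it. It then enters the nucleus, pairs with ARNT and switches on genes whose regulatory DNA holds the letters GCGTG. Its targets include the cytochrome P450 enzymes CYP1A1 and CYP1B1, which oxidise polycyclic aromatic hydrocarbons, and TIPARP, a mono-ADP-ribosyltransferase that dampens the receptor. DMBA is both a ligand and a substrate: CYP1B1 and microsomal epoxide hydrolase, the product of Ephx1, together turn it into the diol epoxide that binds DNA.

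Arrays correlated with each other between 0.952 and 0.989 (Pearson, across all probe sets) and no pair held the same values. The labelled tissue was borne out by its markers. Of 10 luminal epithelial markers 9 lay above the limit, all but Esr1, and their mean log2 signal lay between 10.7 and 11.2 for biopsies, and between 10.8 and 11.3 for total tumours. The Gapdh control probe sets, the study's housekeeping reference, had a mean log2 signal 0.27 higher in the total tumours (SE 0.171), in 4 of 5 pairs. Fewer cells of a type and less RNA per cell cannot be told apart in such bulk samples.

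The regulatory letters of the pathway were looked up in RefSeq promoter windows of rat build GRCr8, taken as the 250 bases before a gene's start. The table used holds windows for 6 of the 8 genes, 7 in all since Ephx1 has 2. The letters GCGTG were searched on both strands. They were found in the windows of 4 genes, Cyp1b1, Tiparp, Aldh1a3 and Arnt, and in 25.9% of all 33469 windows of this length. Among windows of 60% GC or more the share was 53.2%. The longer form TNGCGTG, which contains the shorter, was found only in the Cyp1b1 window among these 7, and in 4.09% of all windows. A match of letters is a description and shows no binding.

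Cyp1b1 and Tiparp are shown because they are the classical targets with a measured signal, and Aldh1a3 because it had the largest difference between the groups among the genes tested. Each runs 5′ to 3′ on the gene's strand, with GCGTG or its reverse complement in capitals. The Cyp1b1 window (chr6:21094315-21094564, plus strand) holds 2 matches, which start 81 and 20 bases before the gene's start, and 8.12% of all windows hold at least 2. The Tiparp window (chr2:152063519-152063768, plus strand) holds 1 match at 136 bases and the Aldh1a3 window (chr1:129427644-129427893, minus strand) 1 match at 42 bases.
Cyp1b1: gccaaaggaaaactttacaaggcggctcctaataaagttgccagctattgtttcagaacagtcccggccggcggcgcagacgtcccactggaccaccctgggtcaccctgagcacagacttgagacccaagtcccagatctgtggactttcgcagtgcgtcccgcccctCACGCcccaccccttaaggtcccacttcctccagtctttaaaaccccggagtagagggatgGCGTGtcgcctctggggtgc
Tiparp: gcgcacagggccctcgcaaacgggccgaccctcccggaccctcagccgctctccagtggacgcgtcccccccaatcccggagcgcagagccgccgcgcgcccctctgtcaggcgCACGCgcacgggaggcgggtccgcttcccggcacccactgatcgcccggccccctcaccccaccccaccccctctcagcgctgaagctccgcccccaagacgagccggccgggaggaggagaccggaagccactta
Aldh1a3: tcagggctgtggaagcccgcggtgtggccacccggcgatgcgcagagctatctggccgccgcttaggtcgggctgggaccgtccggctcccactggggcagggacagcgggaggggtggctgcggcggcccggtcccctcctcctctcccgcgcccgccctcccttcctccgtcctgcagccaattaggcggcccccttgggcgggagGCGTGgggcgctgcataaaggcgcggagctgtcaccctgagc

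Across the 8 genes the data show a receptor pair that was measured in every sample, a Cyp1b1 signal that varied more than 10-fold between arrays, and a Cyp1a1 signal below the limit in all 10 arrays. The lowest Cyp1b1 value, 6.88, was that of biopsy 37I1 alone, and the other arrays lay between 8.45 and 10.33 on the log2 scale. No gene of the 6 tested passed the comparison of total tumours with biopsies after adjustment: 0 of 6 had an adjusted p under 0.05 in limma, and the share over all 18625 probe sets was 0%. At an unadjusted p under 0.05 there was 1 of 6, Aldh1a3, against 6.08% of all probe sets (1.39% higher and 4.7% lower in the total tumours). Aldh1a3 and Ephx1 were higher in the total tumour in 5 of 5 pairs, a pattern that 7.22% of probe sets showed in either direction. Of the 6 genes, all but Arnt averaged higher among total tumours, and the median log2 difference over the 6 was 0.32 beside -0.011 over all probe sets tested. It was 0.14 without tumour 37I1 and 0.17 without 31D3.

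**Figure D1:**
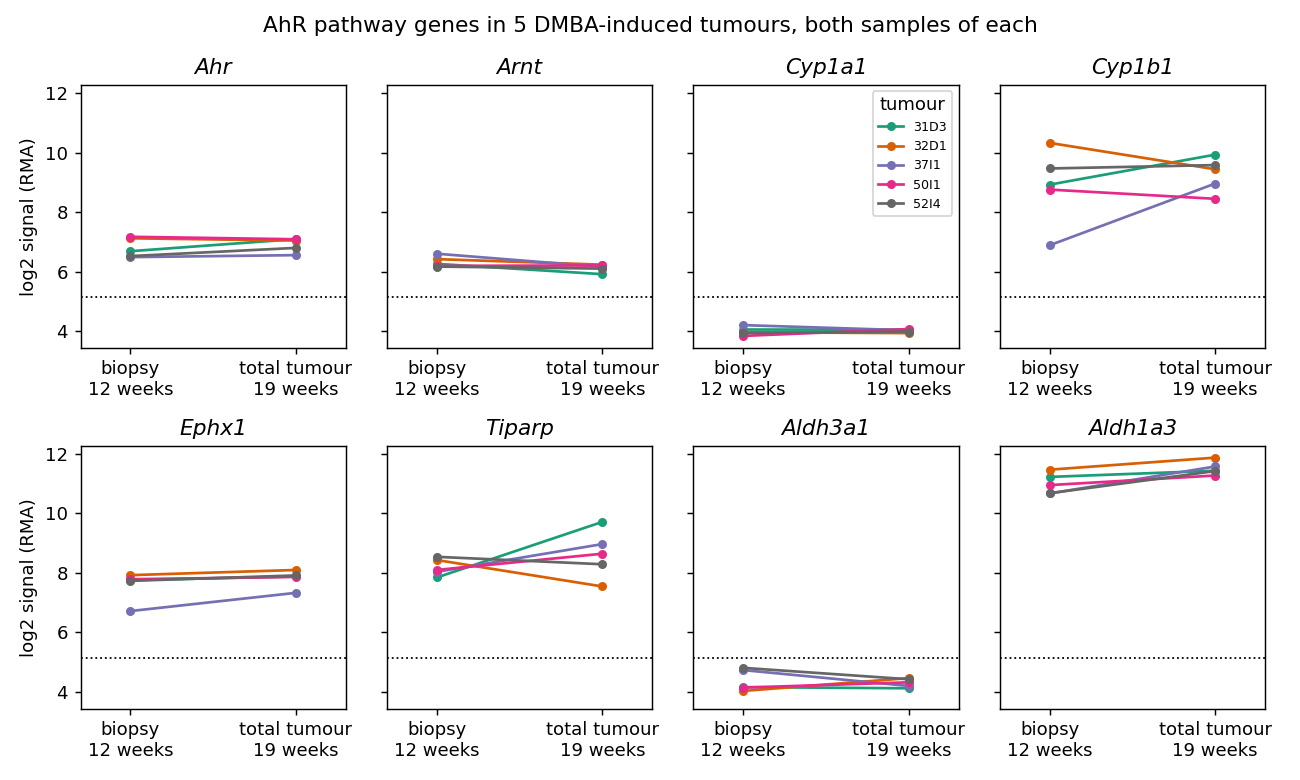
Log2 signals of the 8 genes in each tumour, with the biopsy at 12 weeks on the left and the total tumour at 19 weeks on the right of each panel, 1 line per tumour, and the limit for testing as a dotted line at 5.15. Cyp1a1 and Aldh3a1 lie below the limit on every array, Aldh1a3 goes up in all 5 tumours, and the Cyp1b1 and Tiparp lines cross.

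Ahr, the receptor gene, had log2 signals of 6.69 in 31D3, 7.12 in 32D1, 6.49 in 37I1, 7.17 in 50I1 and 6.52 in 52I4 for the biopsies, and of 7.09, 7.04, 6.55, 7.09 and 6.80 for the total tumours of the same order. The tumours 32D1 and 50I1 were high and 37I1 low at both moments, 31D3 was high only as a total tumour, and the groups overlapped almost fully. The signal averaged 6.80 ± 0.33 (SD, n = 5) among biopsies, against 6.92 ± 0.24 (SD, n = 5) among total tumours. The log2 difference of 0.12 (SE 0.111, 95% interval -0.15 to 0.38) had an adjusted p of 0.901 in limma and was 0.046 without tumour 31D3.

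Of the variation of Ahr over the 10 arrays, 81.1% lay between tumours, where the median probe set had 52.0%. In the test of differences between tumours Ahr had an unadjusted p of 0.0452 and an adjusted p of 0.471 in limma. The second Ahr probe set lay below the limit, with a mean log2 signal of 4.16, and had a difference of 0.23.

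Arnt, the shared partner of AHR and of the hypoxia-inducible factors, ran the other way. Its log2 signals were 6.26, 6.42, 6.60, 6.19 and 6.17 in the biopsies (31D3, 32D1, 37I1, 50I1, 52I4 in turn), and 5.91, 6.23, 6.16, 6.21 and 6.10 in the total tumours. The total tumour was lower in 4 tumours and higher by 0.015 in 50I1, and the highest value was that of biopsy 37I1. The signal averaged 6.33 ± 0.18 (SD, n = 5) among biopsies, against 6.12 ± 0.13 (SD, n = 5) among total tumours. The log2 difference was -0.21 (SE 0.105, 95% interval -0.46 to 0.045, adjusted p = 0.846 in limma), and it stayed below 0, from -0.26 to -0.15, under the alternatives run. Over the 10 arrays Arnt ran against T and NK cell markers (Pearson r = -0.77), fibroblast markers (-0.73) and adipocyte markers (-0.69), and without biopsy 37I1 these were -0.60, -0.32 and -0.42. These arrays are pairs from 5 tumours, the lists were named after their values were seen, and their part in the Arnt values was not tested.

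The CYP1 family of P450 enzymes was represented by Cyp1a1 and Cyp1b1. Cyp1a1, the most inducible target of the receptor, had log2 signals of 4.05, 3.96, 4.20, 3.84 and 3.93 in the biopsies and 4.05, 3.93, 4.03, 4.07 and 3.99 in the total tumours, in the same tumour order. No array reached the limit of 5.15, and the whole range spanned 0.36 on the log2 scale. Its SD over the 10 arrays, 0.10, was larger than that of only 8.9% of the probe sets below the limit, so the signal was flat even among dim probe sets. The log2 difference was 0.014 (95% interval -0.20 to 0.23 in limma without a filter), and a transcript level under the array's background could differ unseen.

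Other targets that respond strongly to the receptor lay below the limit as well. Ahrr, which encodes the repressor that competes with AHR for ARNT, had a mean log2 signal of 3.57 and reached 3.82 at most. Cyp1a2, the liver-enriched relative of Cyp1a1, had a mean of 4.26 and reached 4.67. Aldh3a1, an aldehyde dehydrogenase induced by aromatic hydrocarbons, had values between 4.03 and 4.81, with the highest in the biopsies of 52I4 (4.81) and 37I1 (4.73). Its difference of -0.07 (95% interval -0.44 to 0.30 in limma without a filter) turned to 0.046 without tumour 37I1 and to 0.0085 without 52I4.

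Cyp1b1, the DMBA-activating P450 of the mammary gland and other tissues outside the liver, was far above the limit in every array and varied widely. Its log2 signals were 8.92 in 31D3, 10.33 in 32D1, 6.88 in 37I1, 8.76 in 50I1 and 9.47 in 52I4 in the biopsies. In the total tumours they were 9.93, 9.44, 8.96, 8.45 and 9.58. Biopsy 37I1 stood lowest and biopsy 32D1 highest, a span of 10.9-fold, while the total tumours lay within the range of the biopsies. Apart from biopsy 37I1 the arrays lay between 8.45 and 10.33.

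The SD of Cyp1b1 over the arrays, 0.95, was larger than that of 96.6% of the probe sets tested. The signal averaged 8.87 ± 1.27 (SD, n = 5) among biopsies, against 9.27 ± 0.58 (SD, n = 5) among total tumours. The difference of 0.40 (SE 0.417, 95% interval -0.60 to 1.40, adjusted p = 0.913 in limma) was made of 2.08 in 37I1, 1.01 in 31D3 and 0.11 in 52I4 against -0.31 in 50I1 and -0.89 in 32D1. Without tumour 37I1 it was -0.019, without 32D1 0.72 and without 31D3 0.25, and with array weights it was 0.19. Of its variation 61.9% lay between tumours (adjusted p = 0.545 in limma).

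**Figure D2:**
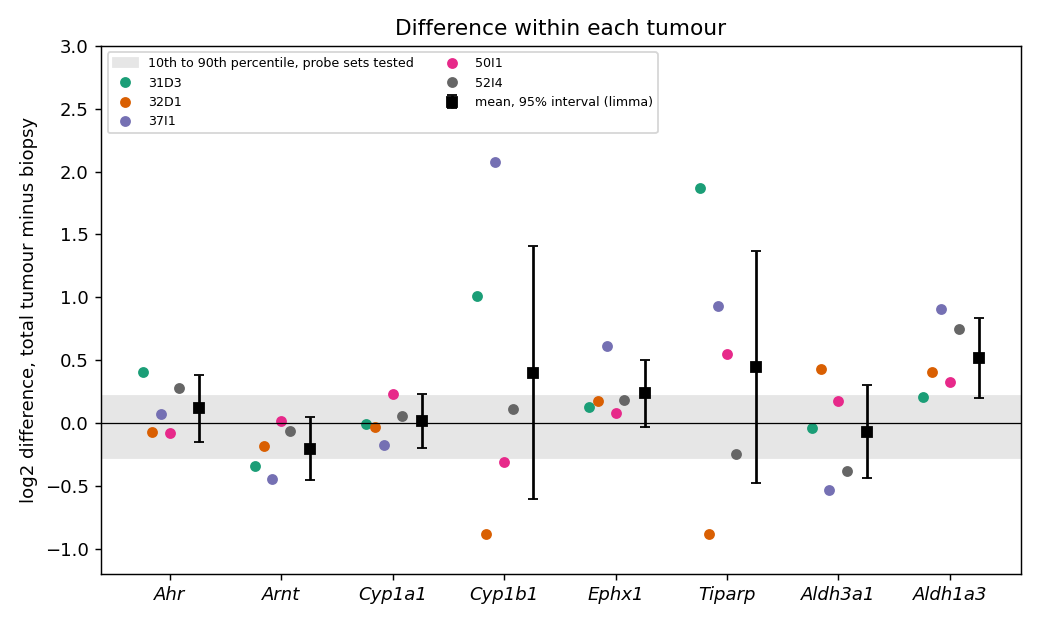
Log2 difference between the total tumour and the biopsy of each tumour (coloured points) and the mean with its 95% interval from limma (black squares), for each gene, with the grey band marking the 10th to 90th percentile of the mean differences of all probe sets tested, -0.28 to 0.21. Only the interval of Aldh1a3 lies wholly above 0, from 0.20 to 0.83, before adjustment for the number of probe sets, and the points of Cyp1b1 and Tiparp spread on both sides of 0.

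Ephx1, the microsomal epoxide hydrolase that acts after the P450 step, had log2 signals of 7.76, 7.92, 6.72, 7.79 and 7.73 in the biopsies (31D3, 32D1, 37I1, 50I1, 52I4 in turn). In the total tumours the values were 7.88, 8.10, 7.33, 7.86 and 7.91. Tumour 37I1 was the lowest at both moments and the other 4 tumours lay between 7.73 and 8.10. Between tumours lay 83.9% of the variation, with an unadjusted p of 0.00677 and an adjusted p of 0.299 in limma. The adjusted p was 0.784 without tumour 37I1 and 0.510 without 52I4, and 0.500 with array weights. Of the 6 genes tested 0 passed an adjusted p under 0.05 for differences between tumours and 2, Ephx1 and Ahr, had an unadjusted p under 0.05. Over all probe sets 0.0859% passed after adjustment, and 10.5% had an unadjusted p under 0.05.

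Within each tumour Ephx1 was a little higher in the total tumour, by 0.61 in 37I1 and by 0.077 to 0.18 in the others. The signal averaged 7.58 ± 0.49 (SD, n = 5) among biopsies, against 7.82 ± 0.29 (SD, n = 5) among total tumours. The difference of 0.23 (SE 0.110, 95% interval -0.032 to 0.50) had an adjusted p of 0.845 in limma and was 0.14 without 37I1. With 5 pairs the smallest p that an exact two-sided sign-flip permutation can give is 0.0625, which Ephx1 and Aldh1a3 both had.

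Tiparp had log2 signals of 7.84, 8.43, 8.04, 8.10 and 8.54 in the biopsies (31D3, 32D1, 37I1, 50I1, 52I4 in turn), and of 9.71, 7.54, 8.97, 8.64 and 8.29 in the total tumours. The biopsies lay close together, and the total tumours held both the highest array, 31D3, and the lowest, 32D1. The SD was 0.29 among biopsies and 0.80 among total tumours (n = 5 each). The difference of 0.44 (SE 0.383, 95% interval -0.48 to 1.36, adjusted p = 0.894 in limma) was 0.085 without tumour 31D3, 0.77 without 32D1 and 0.24 with array weights.

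A second Tiparp probe set, dimmer but above the limit, showed the same arrays at its ends. It read 7.93 in total tumour 31D3 and 5.76 in total tumour 32D1, and its mean difference was 0.29. Only 19.1% of the variation of Tiparp lay between tumours and 66.6% was left as a remainder beside tumour and moment, the most of any of the 8 genes.

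Aldh1a3, which makes retinoic acid from retinaldehyde and is known as a marker of luminal progenitor cells in the mammary gland, had the smallest p of the 6 genes tested. Its log2 signals were 11.22, 11.47, 10.67, 10.95 and 10.68 in the biopsies (31D3, 32D1, 37I1, 50I1, 52I4 in turn), and 11.43, 11.87, 11.57, 11.27 and 11.42 in the total tumours. The total tumour was higher in 5 of 5 tumours, by 0.21 in 31D3 to 0.91 in 37I1, and the groups overlapped only through biopsy 32D1, at 11.47. The signal averaged 10.997 ± 0.35 (SD, n = 5) among biopsies, against 11.51 ± 0.23 (SD, n = 5) among total tumours. The difference of 0.52 (SE 0.131), or 1.43-fold, had an unadjusted p of 0.00659 and an adjusted p of 0.642 in limma, and lay between 0.42 and 0.59 under all alternatives run. Its unadjusted p ran from 0.00640 to 0.0273 with a tumour left out.

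The moment accounted for 49.1% of the variation of Aldh1a3, against a median of 5.62% over the probe sets tested. Several marker lists also differed in mean between the groups. Of 9 skin keratinocyte markers 7 matched and 4 lay above the limit, with Krt1, Ivl and Dsg1 below it, and their mean log2 signal lay between 6.41 and 6.91 for biopsies, and between 7.40 and 8.17 for total tumours. That list holds Krt6c and Dmkn, picked with earlier results of these arrays known, so it is no independent measure. Adipocyte markers, 4 of 8 above the limit with Adipoq, Lep, Plin1 and Cidec below it, averaged 0.999 higher, and fibroblast markers 0.65 higher, while luminal markers differed by -0.028. These means were uneven over the tumours. The adipocyte difference was 3.22 in 37I1, 1.85 in 52I4, 0.40 in 31D3, 0.25 in 32D1 and -0.72 in 50I1. The fibroblast difference was 2.53, 1.47, 0.92, -0.35 and -1.31 in the same order. The mean of the 6 myoepithelial and basal markers above the limit lay between 10.86 and 11.55 for biopsies, and between 10.8 and 11.4 for total tumours. Over the 10 arrays, which are pairs from 5 tumours, Aldh1a3 ran most strongly against these markers (Pearson r = -0.86). The correlation was 0.70 with keratinocyte, 0.58 with adipocyte and 0.51 with fibroblast markers. Without biopsy 37I1 these values were -0.80, 0.67, 0.37 and 0.13 in turn. Markers of mast cells, 5 of 5 above the limit, ran lower in the total tumour in 5 of 5 tumours, with a mean difference of -0.83. The part of any of these in the Aldh1a3 difference was not tested.

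**Figure D3:**
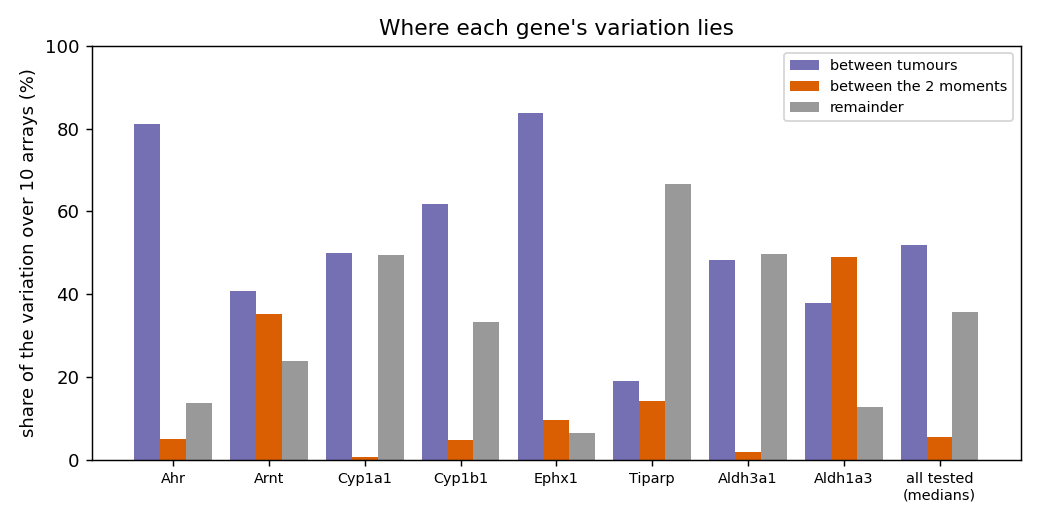
Share in percent of each gene's variation over the 10 arrays that lay between tumours, between the moments and in the remainder, with the medians over all probe sets tested at the right. Ephx1 (83.9%) and Ahr (81.1%) varied mostly between tumours, Aldh1a3 had its largest share between the moments (49.1%) and Tiparp mostly in the remainder (66.6%).

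A single array lay at the end of the range for most of these genes. Biopsy 37I1 was the lowest of the 10 arrays for 4 of the 6 genes tested, Ahr, Cyp1b1, Aldh1a3 and Ephx1, and the highest for Arnt. The share of all probe sets with this biopsy at an end was not counted, so the count cannot be called particular to these genes. The same biopsy had the lowest mean log2 signal of 10 fibroblast markers, all above the limit, at 7.60, where the other biopsies had 9.75 to 11.1 and the total tumours 9.80 to 11.2. It was also the lowest array for macrophage markers, at 7.91 against 8.54 to 10.6, with 8 of 8 above the limit. The same held for T and NK cell markers, at 5.38 against 6.46 to 9.41, and for adipocyte markers, at 6.10 against 7.03 to 9.31. Endothelial markers were lowest in total tumour 50I1, at 6.77 beside 6.82 in biopsy 37I1. Skeletal muscle markers, of which 2 of 4 matched lay above the limit and Ckm and Tnnt3 below it, were highest in biopsy 37I1, at 11.3 against 7.03 to 9.70. The 9.70 was the total tumour of 37I1. Myoepithelial and basal markers were highest in that biopsy too, at 11.55 against 10.82 to 11.40. The part of these cells in the low values was not tested.

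The differences of Cyp1b1 and Ahr had the sign of the fibroblast marker difference within each tumour. The mean of those markers differed between total tumour and biopsy by 0.92 in 31D3, -0.35 in 32D1, 2.53 in 37I1, -1.31 in 50I1 and 1.47 in 52I4. Cyp1b1 and Ahr each had the same sign as this in 5 of 5 tumours, and so they had with the endothelial markers. The endothelial difference had the sign of the fibroblast difference in every tumour, so this is no second agreement. The share of all genes with these signs was not counted. Ephx1, Aldh1a3 and Tiparp had the sign of the fibroblast markers in 3 of 5 tumours and Arnt in 1. Over the 10 arrays the Pearson correlation with the fibroblast markers was 0.81 for Ephx1, 0.80 for Cyp1b1 and 0.61 for Ahr. Without biopsy 37I1, a check added after the data were seen, it was 0.25, 0.35 and 0.45. With the luminal markers it was -0.79 for Ahr and -0.76 for Ephx1, and -0.74 and -0.81 without that biopsy. Of the 9 marker lists set beside the genes, these were named after their values were seen. The sizes did not follow closely: in 52I4 the markers were higher by 1.47 and Cyp1b1 by 0.11. Ahr differed by only -0.076 in 32D1, 0.067 in 37I1 and -0.083 in 50I1. The second Ahr probe set, below the limit, went the other way in each of these. From biopsy to total tumour it read 4.05 to 4.48 in 32D1, 4.41 to 4.03 in 37I1 and 3.83 to 4.15 in 50I1. In 31D3 and 52I4 it was higher in the total tumour, as the markers were.

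**Figure D4:**
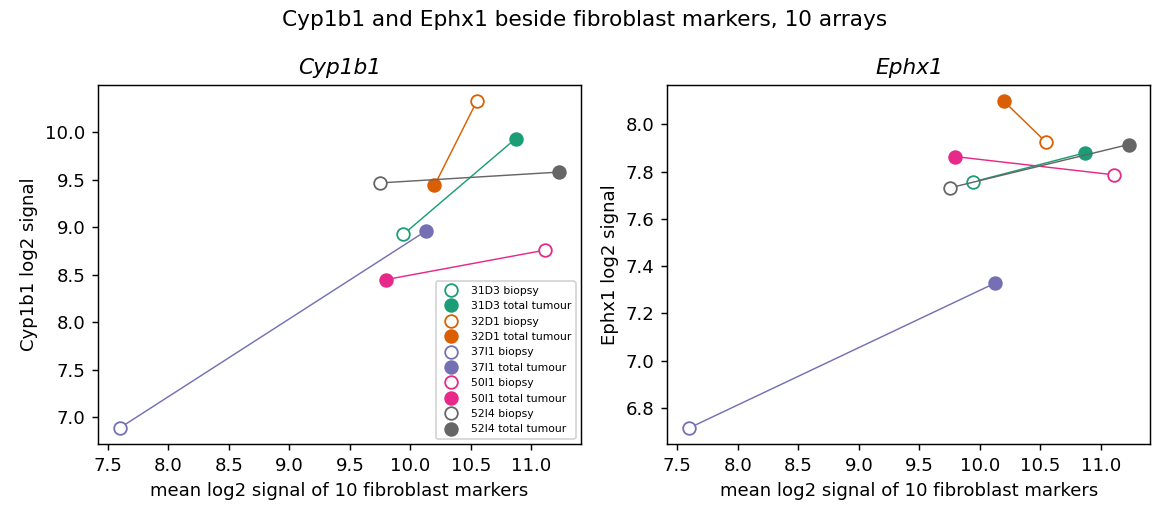
Log2 signal of Cyp1b1 (left) and Ephx1 (right) against the mean log2 signal of 10 fibroblast markers, with open circles for biopsies, filled circles for total tumours and a line joining the samples of a tumour. Biopsy 37I1 lies apart at the lower left of both panels, at 7.60 on the marker axis, and all 5 lines for Cyp1b1 slope upwards.

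Tiparp and the lymphocyte markers had their highest array in common. Total tumour 31D3, the highest array for Tiparp, was also the highest for T and NK cell markers, at 9.41 where the other arrays had 5.38 to 7.64 (7 of 7 markers above the limit). This did not extend to the next array: biopsy 50I1 was second for these markers, at 7.64, and had Tiparp at 8.10, below its mean of 8.41. Within tumours these markers differed by 2.05 in 31D3, 1.90 in 37I1, -0.29 in 32D1, -1.18 in 50I1 and -0.68 in 52I4. Tiparp had the same sign in 4 of 5 tumours, all but 50I1, and also in 4 of 5 with luminal and with macrophage markers. The part of these cells in the Tiparp values was not tested.

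The genes whose pattern over the 10 arrays was most like that of each member were named by Pearson correlation among 10793 genes, as a description. The 10 arrays are pairs from 5 tumours and share the tumour, so they are not independent. For Ahr these were Nrp1 (r = 0.898), Foxs1 and Lrrc15 (r = 0.896 each), and for Cyp1b1 they were Opn3 (0.940), Agpat4 (0.936) and Abca8a (0.913). For Ephx1 they were Parp8 (0.981), H2-Q7-ps1 (0.946) and Capg (0.925). Aldh1a3 was most like St6galnac6 (0.940), Epb41l5 (0.918) and Anxa9 (0.896).

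Arnt was most like Paip2b (0.947), Cpne3 (0.934) and Ankhd1 (0.920). Tiparp was most like Ncoa7 (0.931), Snx18 (0.905) and Gzma (0.896), the last a granzyme of T and NK cells. Gzma is in the list of T and NK cell markers used above, so it is no separate observation. The dim genes reached similar values, with Cyp1a1 most like Grin2b (0.918), Frmd4b (0.901) and LOC102549521 (0.881), and Aldh3a1 most like Rida (0.914), Mettl14 (0.905) and Dmac1 (0.896). A correlation of this size thus occurred also for signals below the limit.

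The wider pathway was described with 6 lists, whose genes were read on the same 5 pairs and are not independent. Over all probe sets tested the median difference was -0.011. Of 25 genes of the receptor complex and the partners of ARNT, 22 matched a probe set of their own and 15 were tested, of which 8 had a higher and 7 a lower mean in the total tumours. After adjustment 0 of 15 passed, beside 0% of all probe sets. Unadjusted, 0 of 15 had a p under 0.05 in limma, beside 6.08% of all probe sets. The median difference was 0.020, and without tumour 50I1 it was -0.032, with 5 higher and 10 lower, and without 32D1 it was 0.062. The smallest p values were those of Ncoa3, a coactivator of nuclear receptors and AHR, with a difference of -0.21 (SE 0.101), and of Arnt itself. The chaperone genes Hsp90ab1 and Ptges3, whose products hold the receptor, differed by -0.0098 (SE 0.086) and 0.020 (SE 0.0941). Epas1, which encodes another partner of ARNT, and Rb1 had the smallest p for differences between tumours, with adjusted p values of 0.416 and 0.321 in limma.

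Of 26 target genes 23 matched and 16 were tested, 9 higher and 7 lower, with a median difference of 0.049. Over all probe sets 6.08% had an unadjusted p under 0.05 in limma (1.39% higher and 4.7% lower in the total tumours). After adjustment 0 of the target genes passed, and 2 of 16 had such an unadjusted p, both higher. These were Id3, an inhibitor of helix-loop-helix factors, with a difference of 0.67 (SE 0.224, adjusted p = 0.705), and Pdgfc, a growth factor for stromal cells, with 0.33 (SE 0.127, adjusted p = 0.799). Id3 kept no such p without 31D3 (0.0715), 37I1 (0.0729) or 52I4 (0.0710), nor did Pdgfc with any tumour but 52I4 left out (0.0612 to 0.110). The same 2 genes had the smallest p for differences between tumours, with adjusted p values of 0.384 and 0.283. Without tumour 37I1 the list had 5 genes higher and 11 lower, and a median of -0.096, and without 31D3 it had 7 higher and 9 lower, and a median of -0.027. Without 50I1 or 32D1 it had 10 higher and 6 lower, and a median of 0.14 or 0.10.

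Nqo1, a quinone reductase that responds both to AHR and to NRF2, averaged 7.42 ± 0.59 (SD, n = 5) among biopsies, against 7.87 ± 0.33 (SD, n = 5) among total tumours. Its difference was 0.45 (SE 0.233, adjusted p = 0.846 in limma) and ran from 0.30 without tumour 52I4 to 0.70 without 37I1. Serpinb2, a plasminogen activator inhibitor, lay below the limit by its mean but was far from flat, and is named for that after its values were seen. It read 6.59 in biopsy 32D1 and 2.82 to 3.34 in the other biopsies, and 8.09, 6.44 and 5.82 in the total tumours 32D1, 37I1 and 31D3 against 3.32 in 50I1 and 3.21 in 52I4. In limma without a filter its difference of 1.64 (SE 0.529) had an adjusted p of 0.626.

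The list of DMBA activation and conjugation had 33 genes, of which 29 matched and 22 were tested, 16 higher and 6 lower, with a median difference of 0.10. Without tumour 52I4 it was 12 higher and 10 lower, with a median of 0.019. An unadjusted p under 0.05 in limma was found for 1 of 22 genes, against 6.08% of all probe sets (1.39% higher and 4.7% lower in the total tumours). This was Akr1b8, an aldo-keto reductase, with a difference of 1.13 (SE 0.408, adjusted p = 0.751 in limma). Its unadjusted p was 0.0935 without tumour 31D3, 0.0698 without 50I1 and 0.0877 without 52I4. Its biopsies spread from 5.76 in 52I4 to 9.10 in 32D1, while the total tumours lay between 7.91 and 9.06. Gstm2, a glutathione transferase, differed by 0.24 (SE 0.114), and Por, the reductase that feeds electrons to the P450 enzymes, by 0.025 (SE 0.131). Glutathione transferases of 1 class resemble each other, so their probe sets may share signal.

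Ephx2, the soluble epoxide hydrolase, differed between tumours most in that list, with an adjusted p of 0.0563 in limma. It read 7.71 in the biopsy and 7.21 in the total tumour of 37I1, while the other 8 arrays lay between 4.64 and 5.38. So the tumour with the lowest Ephx1 at both moments had the highest Ephx2 at both.

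The aldehyde dehydrogenase family formed the next list, with Aldh1a3 counted in it. Of 19 genes 17 matched and 14 were tested, 8 higher and 6 lower, with a median difference of 0.059, or 0.13 without tumour 32D1. After Aldh1a3 the smallest p was that of Aldh1a2, a second retinaldehyde dehydrogenase, with 7.69, 7.44, 6.34, 8.15 and 9.17 in the biopsies and 7.15, 7.50, 8.11, 9.55 and 9.93 in the total tumours. Its difference of 0.69 (SE 0.343, adjusted p = 0.846 in limma) was 0.42 without tumour 37I1 and 0.999 without 31D3. Aldh1a2 and Aldh5a1, which breaks down succinate semialdehyde, had the smallest p for differences between tumours, with adjusted p values of 0.382 and 0.419.

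Genes of retinoid synthesis and response, the pathway that Aldh1a3 belongs to, formed the fifth list. Of 27 genes 25 matched and 19 were tested, 12 higher and 7 lower, with a median difference of 0.24. The median was 0.021 without tumour 37I1, with 10 higher and 9 lower, and 0.12 without 31D3. Rdh10, which makes the retinaldehyde that ALDH1A enzymes use, had log2 signals of 7.18, 6.81, 7.14, 8.08 and 7.64 in the biopsies and 7.70, 7.50, 8.59, 8.50 and 8.32 in the total tumours. It was higher in 5 of 5 tumours, by 0.75 (SE 0.163), with an unadjusted p of 0.00302 and an adjusted p of 0.642 in limma, and by 0.58 to 0.83 with a tumour left out. Stra6, the membrane receptor that takes up retinol, had the smallest p for differences between tumours in the list, with an adjusted p of 0.338 in limma, and a difference between the groups of 0.77 (SE 0.349), or 0.41 without 37I1.

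The genes of the NRF2 defence, which share Nqo1 and Ephx1 with the pathway, had 13 of 15 matched and tested, 11 higher and 2 lower. The median difference was 0.23, beside -0.011 over all probe sets tested. An unadjusted p under 0.05 in limma was found for 0 of 13, against 6.08% of all probe sets. The smallest p values belonged to Hmox1, heme oxygenase, with 0.70 (SE 0.292), or 0.44 without tumour 31D3, and to Gclm, a subunit of the enzyme that starts glutathione synthesis, with 0.34 (SE 0.149). With a tumour left out, 10 to 12 of the 13 genes were higher, and the median was 0.13 without 31D3 and 0.15 without 37I1. The smallest p for differences between tumours were those of Ephx1 and Hmox1, with an adjusted p of 0.401 for Hmox1 in limma.

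**Figure D5:**
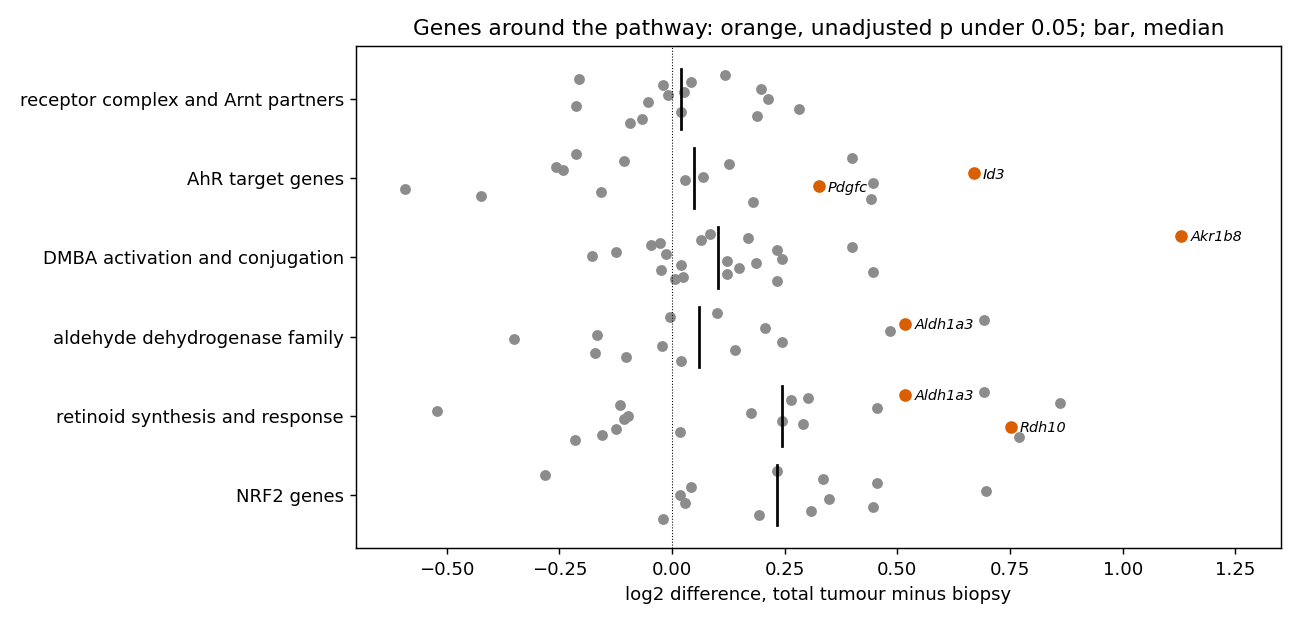
Log2 difference between total tumours and biopsies for each tested gene of the 6 lists, 1 point per gene, with black bars at the medians and orange points with names for genes with an unadjusted p under 0.05 in limma. In the retinoid list the named points, Rdh10 (0.75) and Aldh1a3 (0.52), lie among unnamed ones as far out, such as Cyp26b1 (0.86) and Stra6 (0.77), and no gene passed after adjustment.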

How the data were processed

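The authors deposited normalized log2 signals for 10 Affymetrix arrays; per the submitters' processing notes the method was RMA. It sets all arrays to a common distribution, so a shift shared by most transcripts cannot be seen. That values are log2 follows from their range, 2.34 to 14.26. The chip definition is not given in the sources used here.

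Of 31099 probe sets, 57 controls were left out. Among the rest 20826 had 1 gene in the platform annotation, 436 several and 9780 none, and 20758 were matched through gene identifiers to RefSeq symbols. The dimmest 40% by mean were not tested. Over the 18625 others, limma 3.58.1 (R 4.3.3) was fitted with the tumour as a block, since the tumour names in the labels pair the arrays, with Benjamini-Hochberg adjustment across these. Deviations from the group means correlated above 0.1 in 4 of 5 pairs (highest 0.338) and at -0.214 in 50I1, and arrays of different tumours reached 0.357, so the block rests on the labels. Differences between tumours were tested with the moderated F test of the same fit. The fit was also run on simulated data with independent noise and planted differences, which checks the code and not how it suits these arrays.

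Genes named were the 8 members, in each list those with an unadjusted p under 0.05 (at least the 2 with the smallest p), the 2 with the smallest p between tumours, and the 3 genes most like each member. Others are background or were named after their values were seen. The members' median with a tumour left out and the marker correlations without biopsy 37I1 were added after the data were seen. The members and lists were chosen with earlier results of these data known. Figures were drawn with matplotlib 3.10.9.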

Additional observations from a re-analysis of the deposited data

Results flagged for a closer look

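Biopsy 37I1 lay apart from the other biopsies for Ephx1, with a log2 signal of 6.72. The gap to the next biopsy, 1.02, was 0.841 of the range of the 5 biopsies, where Dixon's limit for 5 samples is 0.71. Of the 16 groups of 5 arrays examined over the 8 genes, 1 held such a sample, and about 1 in 20 groups would by chance.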

How the results depend on the processing

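No probe set passed an adjusted p under 0.05 between total tumours and biopsies in limma under any filter, normalization, prior, array weights or left-out tumour tried, and without the pairing (no replicate block) the count was also 0. At an unadjusted p under 0.05 there were 1133, and the methods' paired test gave 1013 unadjusted and 0 adjusted. Between tumours 16 probe sets passed, 26 with no filter, 8 with the dimmest 60% left out, 3 with array weights, 0 to 1 with a tumour left out, 28 at an adjusted p under 0.10 and 1955 at an unadjusted p under 0.05. Ahr, Arnt, Tiparp, Aldh1a3 and Ephx1 kept the sign of their difference under all alternatives run. Cyp1b1 ranged from -0.019 to 0.72 with a tumour left out. Below the limit, Cyp1a1 was -0.029 with quantile normalization and -0.040 to 0.062 with a tumour left out, and Aldh3a1 -0.20 to 0.046. For Cyp1a1, Aldh3a1, Ahrr and Cyp1a2 signals near background limit what can be read. The number of arrays limits the precision.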
